A study of Mus musculus with 8 samples.

Results

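The genes that distinguish PD-1+ from PD-1- CD4+ T cells were measured in the livers of 10-day-old mice, in 2 libraries of PD-1+ and 2 of PD-1- cells out of 8 RNA sequencing libraries in the series. All 4 libraries carry the label Aire- and Foxp3 GFP+ on the C57/Bl6 strain. As labelled, every group lacks Aire, the thymic regulator that lets medullary epithelial cells display self-antigens to developing T cells, and no Aire-sufficient group is among the samples used here. The cells were sorted as live CD45+ TCRb+ CD4+ cells without the GFP that reports Foxp3, which specifies regulatory T cells, and were then divided by surface PD-1. About 1000 cells went into each library. The labels do not say whether the 2 libraries of a group came from separate animals or how many livers were used, so the p-values measure the spread between these libraries, which may be technical. Of 52997 gene symbols in the count table, 11490 had enough counts to be tested, and these 11490 are what the comparison covers. The 4 remaining libraries, from 5-day-old mice, entered the choice of tested genes, the scaling and the estimate of spread, but not the contrast itself.

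PD-1, encoded by Pdcd1, is an inhibitory receptor that appears on T cells after their antigen receptor has been engaged. It stays high on cells that keep meeting antigen, in chronic infection, in tumours and in autoimmunity, and it also marks follicular helper cells. The liver of a newborn mouse is still leaving its role as a blood-forming organ and receives its earliest T cells from the thymus during these days. CD4+ cells that have not met antigen circulate in a resting state kept by factors such as TCF1, LEF1 and SATB1, with CCR7 and the IL-7 receptor on their surface.

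The libraries held 1473216 to 2843311 counts, with 17693 to 20053 symbols detected. Pdcd1, the transcript of the sorted protein, was at 1.30 and 1.95 CPM (counts scaled to a common library size) in PD-1- replicates 1 and 2 and at 696 and 499 CPM in PD-1+ replicates 1 and 2. All pairs of values below follow this order of replicates. Foxp3 had 32 and 15 counts in PD-1- and 1 and 0 in PD-1+ libraries, so the few Foxp3 transcripts lay on the PD-1- side of a sort that removed GFP+ cells. Aire had 0 and 1 counts in PD-1- and 0 and 0 in PD-1+ libraries, and since T cells make little of it, this does not check the genotype. Cd4 was at 935 and 716 CPM in PD-1- and 1524 and 1336 CPM in PD-1+ libraries, whereas Cd8a, the coreceptor of cytotoxic T cells, had 13 and 3 counts on the PD-1- and 40 and 15 on the PD-1+ side. Its partner Cd8b1 went the other way, with 72 and 56 counts against 37 and 45 (-1.01 ± 0.34 on the log2 scale, edgeR adjusted p = 0.0329), a call lost without PD-1- replicate 2, PD-1+ replicate 1 or PD-1+ replicate 2 (edgeR adjusted p = 0.220, 0.164 and 0.0690). Trac, the constant segment of the receptor alpha chain, was at 609 and 579 CPM against 966 and 821 CPM, so receptor transcripts were present on both sides. In bulk RNA, a larger share of cells making a transcript and more RNA per cell cannot be told apart, and this holds for every result here.

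Markers of other liver cells were low, and some were higher on the PD-1+ side. Of 14 hepatocyte markers 5 had enough counts to be tested, and their list summed to 17.7 to 19.0 CPM in PD-1- and 70.6 to 73.2 CPM in PD-1+ libraries. Alb, the plasma albumin gene, had 6 and 2 counts in PD-1- and 119 and 105 in PD-1+ libraries (4.49 ± 0.83 on the log2 scale, edgeR adjusted p = 0.00241, but 0.0501 without PD-1- replicate 1). The fetal albumin relative Afp had 38 and 20 counts against 23 and 15 and was not called. Of 12 macrophage markers, 6 were tested, of which 3 were called higher, 0 lower and 3 not, and the list summed to 44.1 to 50.9 CPM in PD-1- and 65.9 to 70.3 CPM in PD-1+ libraries. Cd5l, a secreted protein of resident macrophages, had 0 and 0 counts in PD-1- and 33 and 32 in PD-1+ libraries, the complement gene C1qb 0 and 0 against 10 and 10 and the scavenger receptor Marco 0 and 1 against 11 and 14. C1qb lost its call without PD-1- replicate 1 (edgeR adjusted p = 0.0985), and Marco without PD-1- replicate 1 or PD-1+ replicate 2 (0.243 and 0.0680). Clec4f, which defines Kupffer cells, had 0 and 0 counts against 11 and 13 and was too low to test. No neutrophil or mast cell marker had enough counts to be tested. The sum of B cell and plasma cell markers ran the other way, at 593 to 692 CPM in PD-1- and 293 to 309 CPM in PD-1+ libraries. Of 7 tested, 1 was called higher, 1 lower and 5 not, and Ighm alone was at 624 and 260 CPM over the pooled libraries. Dendritic cell markers summed to 61.1 to 88.6 CPM in PD-1- and 129 to 154 CPM in PD-1+ libraries. Of 8 tested, 2 were called higher, 0 lower and 6 not. Over the pooled libraries Xcr1 was at 1.63 and 42.4 CPM and Bst2 at 26.2 and 26.5 CPM. The part of RNA from these cells in the results below was not tested.

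At 10 days, 1881 genes rose and 1483 fell from PD-1- to PD-1+ cells at a Benjamini-Hochberg adjusted p below 0.05 (edgeR quasi-likelihood test), out of 11490 tested. Calls upward made up 16.4% of the tested genes and calls downward 12.9%, and these shares are the background for every group of genes below. Differences of 2-fold or more were called upward in 1296 genes (11.3%) and downward in 966 genes (8.41%). Very large differences, of 16-fold or more, lay upward in 260 genes and downward in 107 by the fitted fold change, or in 221 and 88 with genes at 0 counts on 1 side taken at their lower bound. The libraries of the populations did not overlap for 3853 genes that were higher (33.5%) and 3594 that were lower (31.3%). The median log2 fold change over all tested genes was 0.01. Among the 8126 genes not called, 3216 had a 95% confidence interval of the fold change that stayed within 2-fold either way, and for the rest a 2-fold difference was not excluded by these libraries.

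The largest upward differences among well-expressed genes included secreted factors, inhibitory receptors and a protease inhibitor. Angptl2, a secreted angiopoietin-like protein, was at 1.30 and 0.650 CPM in PD-1- and 632 and 399 CPM in PD-1+ libraries (8.84 ± 0.41, the log2 fold change with its standard error, edgeR adjusted p = 2.45e-09). The transcript was near absent from both PD-1- libraries and abundant in both PD-1+ libraries. Serpina3g, an inhibitor of cysteine proteases in activated lymphocytes, had 0 and 2 counts against 756 and 413 (8.72 ± 0.61, edgeR adjusted p = 2.25e-07). Rgs16, a brake on signals from chemokine receptors, was at 4.21 and 2.60 CPM against 424 and 305 CPM (6.63 ± 0.30, edgeR adjusted p = 1.86e-10). Bhlhe40, a repressor used by cytokine-producing T cells, was at 12 and 4.55 CPM against 842 and 841 CPM (6.52 ± 0.93, edgeR adjusted p = 0.00908). The PD-1+ libraries were close together for Bhlhe40 and the PD-1- libraries were not, and its call was lost without PD-1- replicate 1 or 2 (edgeR adjusted p = 0.0632 and 0.0583). Pdcd1 itself (8.57 ± 0.31 on the log2 scale) follows from the sort. In GENCODE M21, on GRCm38, Angptl2 lies on chromosome 2 from 33216069 to 33247717 on the plus strand, Serpina3g lies on chromosome 12 from 104236245 to 104241939 on the plus strand, Rgs16 lies on chromosome 1 from 153740349 to 153745468 on the plus strand and Bhlhe40 lies on chromosome 6 from 108660629 to 108666925 on the plus strand.

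The largest downward differences among well-expressed genes included a secreted binding protein, a chromatin organiser, adaptors and receptors. Igfbp4, a secreted binding protein of insulin-like growth factors, fell from 1711 and 1544 CPM in PD-1- to 13.2 and 21.8 CPM in PD-1+ libraries (-6.54 ± 0.41, edgeR adjusted p = 3.49e-05). Satb1, which folds chromatin at T cell loci, fell from 1648 and 1703 to 22.8 and 35.1 CPM (-5.85 ± 0.20, edgeR adjusted p = 9.66e-12). Both genes were high in both PD-1- libraries and low in both PD-1+ libraries. Lack of overlap was a condition for their choice. Pdlim4, an adaptor that binds actin, was at 116 and 169 CPM against 2.49 and 2.46 CPM (-5.81 ± 0.37). Trat1, an adaptor that steadies the T cell receptor at the surface, was at 137 and 154 CPM against 2.49 and 5.27 CPM (-5.20 ± 0.30). Vipr1, the receptor of vasoactive intestinal peptide, was at 153 and 158 CPM against 2.85 and 8.43 CPM (-4.77 ± 0.33). Txk, a Tec-family kinase of the receptor pathway, was at 401 and 362 CPM against 27.8 and 13 CPM (-4.22 ± 0.26), and Rapgef4, an exchange factor that senses cyclic AMP, at 83.6 and 65.7 against 3.21 and 4.57 CPM (-4.25 ± 0.41). Tdrp, Atp1b1, Treml2 and the pseudogene Bambi-ps1 had log2 fold changes of -4.97, -4.88, -4.74 and -4.49. Together with Il7r, given below, they completed the 12 largest falls among called genes without overlap averaging a log2 CPM of 4 or more. Unnamed models and receptor variable segments were left out. Ifngr2, given below, averaged less than this level and fell further than Satb1. On the same build, Satb1 lies on chromosome 17 from 51736187 to 51833290 on the minus strand, Trat1 lies on chromosome 16 from 48730774 to 48772021 on the minus strand and Vipr1 lies on chromosome 9 from 121642716 to 121672954 on the plus strand.

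**Figure D1:**
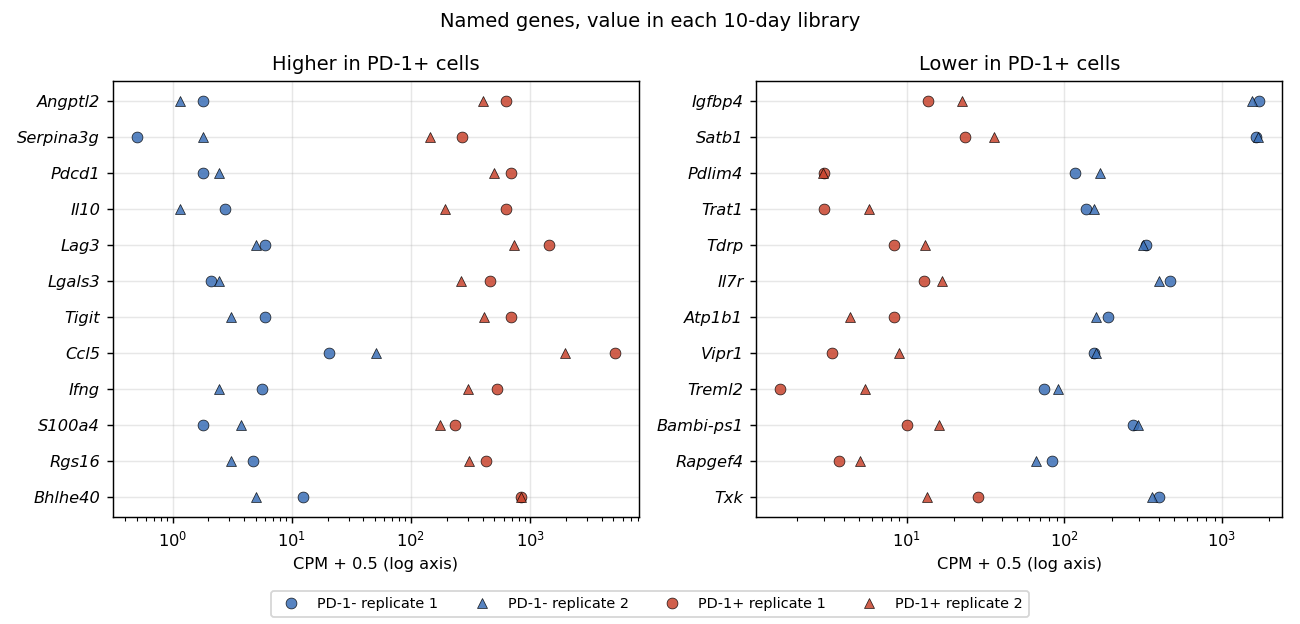
CPM in each of the 4 libraries of 10 days, with 0.5 added and on a log axis, for the 12 well-expressed genes with the largest upward (left) and downward (right) differences. Circles are replicate 1 and triangles replicate 2, blue is PD-1- and red PD-1+. Lack of overlap between the colours was a condition for the choice of these 24 genes.

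**Figure D2:**
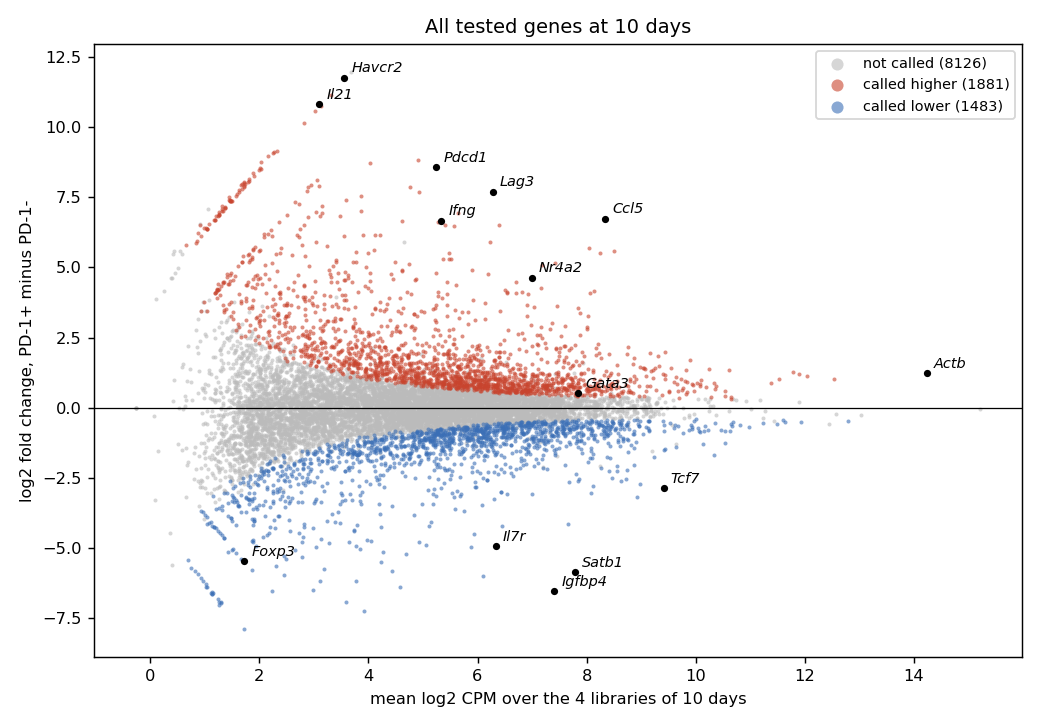
Log2 fold change of PD-1+ against PD-1- cells (vertical axis) against the mean log2 CPM over the 4 libraries (horizontal axis) for the 11490 tested genes, with 1881 called higher in red and 1483 called lower in blue. The diagonal rows at the left edge are genes with 0 counts on 1 side, whose fitted fold changes are not bounds.

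The inhibitory receptors were mostly higher in PD-1+ cells. Of 16 tested (of 17 in the table), 12 were called higher, 1 lower and 3 not, with a median log2 fold change of 3.85 against 0.01 over all tested genes. The list holds Pdcd1, whose call the sort fixed, and without it 11 of 15 were called higher, with a median of 3.73. Lag3, which binds MHC class II, was at 5.51 and 4.55 CPM in PD-1- and 1439.6 and 730.2 CPM in PD-1+ libraries (7.70 ± 0.41, edgeR adjusted p = 8.50e-07). Tigit, a receptor for CD155, was at 5.51 and 2.60 CPM against 686 and 409.7 CPM (6.93 ± 0.32, edgeR adjusted p = 2.19e-09). Ctla4, which competes with CD28 for B7 ligands, was at 26.2 and 31.9 CPM against 1380.5 and 688 CPM (5.17 ± 0.45, edgeR adjusted p = 0.000307). For each of these 3 receptors the PD-1+ libraries differed from each other by less than the distance to the PD-1- libraries, with replicate 1 the higher. Havcr2, the gene of TIM-3, named here after its values were seen, had 0 and 0 counts in PD-1- and 725 and 300 in PD-1+ replicates 1 and 2, at least 261-fold higher over a floor of 3 counts in the PD-1- group. Nt5e, the ectoenzyme CD73 that makes adenosine, was at 15.9 and 22.8 CPM against 212 and 287 CPM (3.73 ± 0.30). Btla, which binds HVEM, was at 139 and 157 CPM against 134 and 124 CPM and was not called (-0.20 ± 0.21). Vsir, the gene of VISTA, was at 279 and 309 CPM against 510.4 and 328 CPM and was not called (0.51 ± 0.19, edgeR adjusted p = 0.0591, but 0.00477 without PD-1+ replicate 2).

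Costimulatory receptors and ligands moved the same way in smaller steps. Of 19 tested (of 20), 13 were called higher, 1 lower and 5 not (median 1.77). Tnfrsf18, the GITR receptor of the TNF family, was at 22.0 and 29.9 CPM against 318 and 232 CPM (3.44 ± 0.25, edgeR adjusted p = 5.59e-08). Tnfrsf1b, the inducible TNF receptor, was at 19.8 and 24.7 CPM against 438 and 318 CPM (4.11 ± 0.31). Icos, a relative of CD28, was already at 165 and 168 CPM in PD-1- cells and reached 625 and 508 CPM with PD-1 (1.77 ± 0.16). Slamf7, a self-binding receptor of the SLAM family, was at 8.42 and 11.1 CPM against 128 and 75.6 CPM (3.42 ± 0.32). Cd28, the constitutive costimulator, was at 579.7 and 594 CPM against 667 and 669 CPM and was not called (0.19 ± 0.14), and neither was Slamf6 (422 and 418 CPM against 426 and 579 CPM, 0.26 ± 0.16).

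Among the cytokine genes, 20 of 29 had enough counts to be tested. Of these 13 were called higher in PD-1+ cells, 0 lower and 7 not, with a median of 3.59, or 3.10 with the 5 genes at 0 counts on the PD-1- side set at their bound. Ifng, by which Th1 cells arm macrophages, was at 5.18 and 1.95 CPM in PD-1- and 524 and 302 CPM in PD-1+ libraries (6.66 ± 0.74, edgeR adjusted p = 0.00244). Il10, a cytokine that restrains macrophages and T cells, was at 2.27 and 0.650 CPM against 623 and 192 CPM (7.85 ± 1.01, edgeR adjusted p = 0.00503). Areg, an epidermal growth factor ligand made in tissue repair, was at 0.648 and 0 CPM against 58.4 and 82.2 CPM (7.2 ± 0.61, edgeR adjusted p = 2.41e-07). Csf1, the growth factor of macrophages, had 1 and 0 counts against 256 and 94 (7.86 ± 0.84, edgeR adjusted p = 6.26e-06). Each of these 4 was near the floor of detection in PD-1- cells and present in both PD-1+ libraries.

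Cytokines of several helper lineages had 0 counts in both PD-1- libraries. Il21, which acts on B cells, reached 364 and 166 counts in PD-1+ replicates 1 and 2, so that it was at least 135-fold higher. Il5, the growth factor of eosinophils, had 53 and 110 counts, at least 41.5-fold higher, and Ebi3, a subunit of IL-27 and IL-35, had 28 and 42 counts, at least 17.8-fold higher. Spp1, the secreted phosphoprotein osteopontin that cholangiocytes also make, had 206 and 240 counts, at least 114-fold higher, and the part of cholangiocyte RNA in it was not tested. Of the other cholangiocyte markers, Epcam had 10 and 9 counts against 47 and 35 and was not called (edgeR adjusted p = 0.0551, but 0.0234 in the 10-day libraries alone), Sox9 had 1 and 0 against 5 and 0, Krt18 had 0 and 1 against 4 and 1, Krt8 had 0 and 0 against 1 and 0, and Krt7 and Krt19 were at 0 in all 4 libraries. Each floor is 3 counts over both PD-1- libraries and covers counting error only. Il2, which drives T cell expansion, had 0 and 2 counts in PD-1- and 14 and 16 in PD-1+ libraries and was called (edgeR adjusted p = 0.00882, or 0.142 without PD-1- replicate 1). Ltb, the lymphotoxin beta chain that organises lymphoid tissue, was at 415 and 438 CPM against 400.3 and 398 CPM (-0.10 ± 0.14, edgeR adjusted p = 0.647, 95% interval -0.38 to 0.19). Il16, a chemoattractant that resting T cells store, was at 281 and 209 CPM against 187 and 179 CPM and was not called (-0.43 ± 0.17, edgeR adjusted p = 0.0650, but 0.0255 without PD-1- replicate 2).

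The chemokine ligands were led by Ccl5. Of 7 tested (of 11), 3 were called higher, 0 lower and 4 not (median 4.63, or 4.03 with Ccl1 at its bound), and 1 was called higher without PD-1- replicate 1 and 1 without PD-1- replicate 2. Ccl5, which draws in effector T cells and monocytes, was at 20.1 and 50.7 CPM in PD-1- and 5182 and 1949 CPM in PD-1+ libraries (6.74 ± 1.27, edgeR adjusted p = 0.0225). The PD-1+ libraries were far above the PD-1- libraries but also differed from each other, and the call was lost without PD-1- replicate 1, PD-1- replicate 2 or PD-1+ replicate 1 (edgeR adjusted p = 0.134, 0.0953 and 0.0689). Ccl3 and Ccl4, neighbouring genes of inflammatory chemokines, were at 2.91 and 0 and 8.10 and 0 CPM in PD-1- libraries. In PD-1+ libraries Ccl3 was at 201 and 77.3 CPM (6.16 ± 1.32, edgeR adjusted p = 0.0279, or 0.105 and 0.0988 without PD-1- replicate 1 and 2). Ccl4 was at 526 and 101 CPM and was not called (5.92 ± 1.66, edgeR adjusted p = 0.0674, but DESeq2 adjusted p = 0.0300). Cxcl10, a ligand of CXCR3, was at 1.30 and 2.60 CPM against 33.8 and 25.7 CPM (4.03 ± 0.51, edgeR adjusted p = 1.39e-05). Levels were also scaled to exonic length, so that genes can be compared, and averaged over both libraries. Ccl5 in PD-1+ cells was at 3714 CPM per kb of exon, against 474 for Ccl4, 319 for Ifng, 311 for Il10, 263 for Ltb, 181 for Ccl3, 57.9 for Areg and 47.9 for Spp1. Below Ccl5, at 5398 and 2030 in PD-1+ replicates 1 and 2, the order differed between the libraries. Ccl4 was at 796.5 and 152.3, Ifng at 404 and 233, Il10 at 475 and 146 and Ltb at 264 and 263. In replicate 2 Ltb thus stood above the other 3. In PD-1- cells Ltb stood at 281 CPM per kb and Ccl5 at 36.9. Tnf, the inflammatory cytokine, named after its values were seen, was at 35.3 CPM per kb in PD-1- and 37.5 in PD-1+ cells, and its difference was not called (0.08 ± 0.25).

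**Figure D3:**
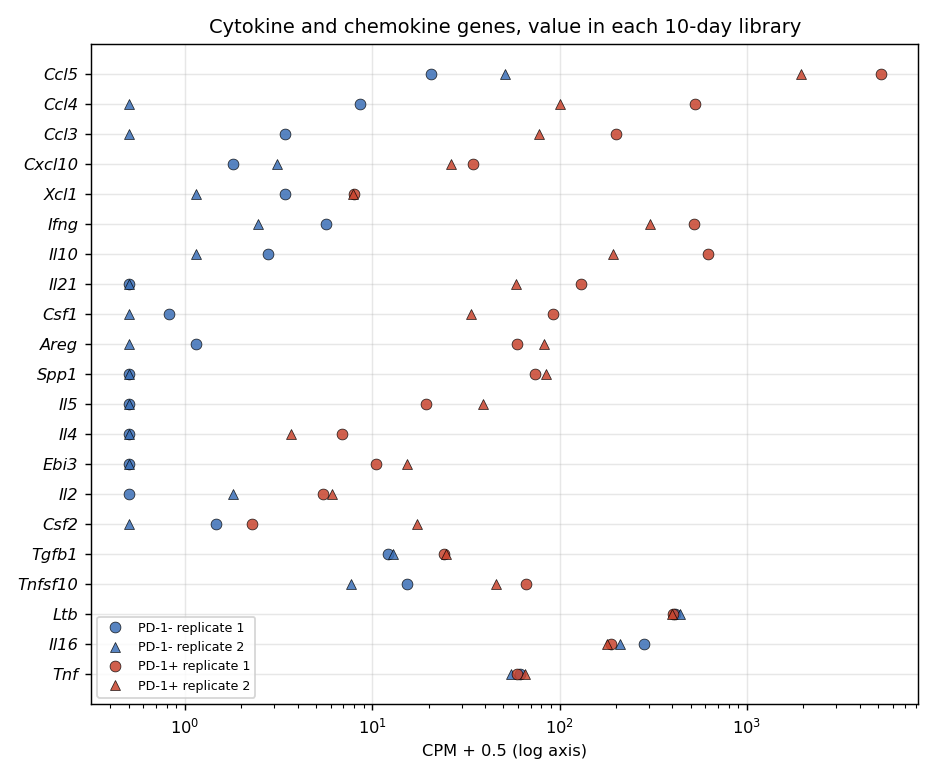
CPM in each library, with 0.5 added and on a log axis, of 21 cytokine and chemokine genes, with blue for PD-1- and red for PD-1+ and circles for replicate 1 and triangles for replicate 2. Symbols at the left edge are libraries with 0 counts; Ltb, Il16 and Tnf at the bottom differ little between the populations.

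Genes of cytotoxic granules and their inhibitors were mostly higher in PD-1+ cells. Of 15 tested (of 16), 10 were called higher, 0 lower and 5 not (median 2.36), and 6 were called higher without PD-1- replicate 1. Gzmb, a granule protease that triggers apoptosis, was at 29.1 and 23.4 CPM against 1386 and 446 CPM (5.10 ± 0.82, edgeR adjusted p = 0.0135, or 0.0912 and 0.0830 without PD-1- replicate 1 and 2). Nkg7, a granule membrane protein, was at 25.9 and 52.0 CPM against 2501 and 1344 CPM (5.68 ± 0.77, edgeR adjusted p = 0.00762, or 0.0560 without PD-1- replicate 1). Fasl, the death ligand, was at 6.80 and 11.7 CPM against 186 and 124 CPM (4.14 ± 0.36, edgeR adjusted p = 6.04e-07). The populations did not overlap for any of these 3 genes. The serpins Serpinb9, which inhibits granzyme B, and Serpinb6b, its relative, were at 19.8 and 21.5 and 11 and 18.2 CPM in PD-1- and at 192 and 163 and 173 and 138 CPM in PD-1+ libraries, log2 fold changes of 3.11 ± 0.20 and 3.47 ± 0.25. Gzmk, another granzyme, had 2 and 0 counts against 115 and 131 (6.51 ± 0.80, edgeR adjusted p = 1.66e-05). Gzma, abundant in NK cells, was at 68.3 and 12.4 CPM against 15.7 and 52.0 CPM, with libraries that overlapped, and was not called (-0.33 ± 1.04). The NK receptor gene Klrb1c was lower in PD-1+ cells, with 30 and 14 counts against 2 and 1 (-4.02 ± 0.96, edgeR adjusted p = 0.00421). It was the only gene called among 8 tested markers of NKT cells, T cells with NK receptors, and 7 were not called. Of 6 tested markers of NK and innate lymphoid cells, 2 were called higher, 2 lower and 2 not.

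Cytokine receptors were called in both directions. Of 25 tested (of 26), 9 were called higher, 8 lower and 8 not (median 0.02). Il7r, the survival receptor of resting T cells, fell from 469.6 and 399 to 12.5 and 16.2 CPM (-4.92 ± 0.23, edgeR adjusted p = 2.59e-10). Il18rap, the signalling chain of the IL-18 receptor, was at 7.77 and 13.7 CPM against 176 and 158 CPM (4.05 ± 0.25, edgeR adjusted p = 5.48e-09). The chains of the interferon-gamma receptor differed from each other. Ifngr2, the signalling chain, fell from 102 and 82.6 to 0.712 and 1.76 CPM (-6.17 ± 0.42, edgeR adjusted p = 1.22e-08), whereas Ifngr1, the binding chain, was at 462 and 501 CPM against 553 and 380.2 CPM and was not called (-0.05 ± 0.17, 95% interval -0.40 to 0.31). Il17ra, the shared receptor of IL-17 cytokines, was at 482 and 505 CPM against 163 and 150.4 CPM (-1.65 ± 0.14). Il1rl1, the IL-33 receptor found on type 2 and tissue-resident lymphocytes, was at 2.91 and 1.95 CPM against 42.0 and 21.8 CPM (3.61 ± 0.49, edgeR adjusted p = 3.72e-05).

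Receptors that steer migration were also called in both directions. Of 16 tested (of 18), 8 were called higher, 6 lower and 2 not (median 0.87, or 0.92 with bounds), and 4 and 5 were called higher without PD-1- replicate 1 and 2. Receptors that guide cells into, within and out of lymph nodes were among the lower ones. Ccr7, a receptor for entry, fell from 1597 and 1360.1 to 118 and 212 CPM (-3.17 ± 0.24, edgeR adjusted p = 5.92e-06). S1pr1, which guides exit along a lipid gradient, was at 340.0 and 312 CPM against 68.0 and 77.3 CPM (-2.17 ± 0.16), and Gpr183, an oxysterol receptor, at 134 and 133 against 19.2 and 15.1 CPM (-2.95 ± 0.24). Receptors for inflamed tissue were higher. Cxcr3 was at 22.3 and 20.8 CPM against 511 and 451 CPM (4.47 ± 0.19, edgeR adjusted p = 6.89e-11). Cx3cr1, the fractalkine receptor that macrophages also carry, had 0 and 0 counts in PD-1- and 108 and 38 in PD-1+ replicates 1 and 2, at least 37.2-fold higher (edgeR adjusted p = 0.000484, but DESeq2 adjusted p = 0.214). Ccr2, a receptor of inflammatory monocytes and effector T cells, was at 31.4 and 18.2 CPM against 344 and 115 CPM (3.15 ± 0.67, edgeR adjusted p = 0.0233) but was not called without PD-1- replicate 1 or 2 (edgeR adjusted p = 0.0882 and 0.106).

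Of 18 adhesion genes tested (of 19), 9 were called higher, 3 lower and 6 not (median 1.12). Cd44, the hyaluronan receptor of antigen-experienced cells, was at 59.3 and 61.1 CPM against 411 and 426 CPM (2.80 ± 0.16, edgeR adjusted p = 2.04e-09). Itga1, the alpha chain of a collagen receptor found on resident T cells, was at 1.30 and 3.90 CPM against 88.3 and 62.2 CPM (5.03 ± 0.46), and Icam1, a ligand of LFA-1, at 112 and 106 against 376 and 294 CPM (1.62 ± 0.17). Itgb3, the beta chain of the vitronectin receptor, went the other way, at 139 and 120.3 against 25.6 and 27.8 CPM (-2.28 ± 0.21). Itgb7, a chain of the gut-homing integrins, was at 1311 and 1335 CPM against 283 and 811 CPM (-1.27 ± 0.57, edgeR adjusted p = 0.184), with PD-1+ libraries that differed between themselves, and was not called except in some fits, such as that without PD-1+ replicate 2 (edgeR adjusted p = 7.17e-05).

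Transcription factors of effector cells were mostly higher and those of resting cells mostly lower. Of 27 factors of effector and memory cells tested (of 29), 21 were called higher, 1 lower and 5 not (median 2.14). Tbx21, the T-bet factor of Th1 cells, was at 6.15 and 17.6 CPM in PD-1- and 303 and 329 CPM in PD-1+ libraries (4.89 ± 0.32, edgeR adjusted p = 1.05e-07). Maf, a driver of Il10 and Il21, was at 6.15 and 6.50 CPM against 329 and 171 CPM (5.30 ± 0.35, edgeR adjusted p = 2.40e-08). Runx2 was at 1.94 and 1.30 CPM against 149.6 and 101 CPM (6.14 ± 0.41), and Zbtb32, a repressor induced by activation, had 3 and 0 counts against 308 and 361 (7.41 ± 0.43). Ikzf2, the Helios factor of self-reactive and regulatory T cells, was at 8.42 and 13 CPM against 223 and 198 CPM (4.36 ± 0.25, edgeR adjusted p = 2.04e-09), on the side where Foxp3 had 1 count. Tox, a factor of chronically stimulated T cells, was present at 77.4 and 87.2 CPM in PD-1- cells and reached 347 and 375 CPM with PD-1 (2.14 ± 0.18, edgeR adjusted p = 1.26e-07). Bcl6, which directs follicular helper cells, was low at 8.10 and 8.46 CPM against 15.3 and 19.7 CPM and was not called (1.08 ± 0.50, edgeR adjusted p = 0.122). Gata3, the Th2 factor, was at 163 and 219 CPM against 289 and 260.4 CPM (0.53 ± 0.18, edgeR adjusted p = 0.0368), and it was not called without PD-1- replicate 1, PD-1+ replicate 1 or PD-1+ replicate 2 (edgeR adjusted p = 0.322, 0.172 and 0.0579). Irf4, induced in proportion to receptor signal, was at 69.3 and 68.3 CPM against 109 and 96.3 CPM and was not called (0.58 ± 0.29).

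Of 16 factors of resting T cells, all tested, 14 were called lower, 1 higher and 1 not (median -1.81). Tcf7, which encodes TCF1, fell from 2046 and 1698 to 183 and 334 CPM (-2.85 ± 0.29, edgeR adjusted p = 0.000214). Lef1, its relative, fell from 859 and 697 to 83.0 and 108 CPM (-3.03 ± 0.17, edgeR adjusted p = 2.04e-09). Klf3, a repressor of the Kruppel-like family, fell from 678 and 803 to 157 and 151 CPM (-2.26 ± 0.15) and Foxp1, a keeper of quiescence, from 614 and 606 to 182 and 176 CPM (-1.77 ± 0.16). Tcf7 kept a clear level in both PD-1+ libraries, whereas Satb1, given above, was at 22.8 and 35.1 CPM there. The member called higher, Elf4, named after its value was seen, differed by 0.54 ± 0.19, and no member was called higher without PD-1- replicate 1, without PD-1+ replicate 1 or without PD-1+ replicate 2. Of the other 20 genes of resting cells, 17 were called lower, 1 higher and 2 not (median -2.66). Pik3ip1, an inhibitor of PI3 kinase, was at 189 and 187 CPM against 15.0 and 14.4 CPM (-3.67 ± 0.25), and Tob1, an antiproliferative factor, at 242 and 267 against 17.8 and 45.7 CPM (-3.0 ± 0.39). Of 8 tested genes of recent thymic emigrants (of 12), 4 were called lower and 2 higher. Ccr9, the gut-homing receptor that thymocytes carry, was at 58.3 and 57.9 CPM against 14.2 and 7.38 CPM (-2.42 ± 0.32), and Sox4 at 9.39 and 12.4 against 0 and 0.703 CPM (-4.73 ± 0.93).

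Genes that the T cell receptor induces were called higher in 17 of 25, lower in 1 and not called in 7 (median 1.21). Nr4a2, an orphan nuclear receptor, was at 23.3 and 27.3 CPM in PD-1- and 627 and 617 CPM in PD-1+ libraries (4.63 ± 0.18, edgeR adjusted p = 2.76e-11). Dusp4, a phosphatase that turns off MAP kinases, was at 4.86 and 3.25 CPM against 120.4 and 184 CPM (5.14 ± 0.40). Nfatc1, which receptor signals amplify, was at 81.9 and 99.5 CPM against 404 and 434 CPM (2.21 ± 0.18), and Nfkb1 at 89.1 and 85.2 against 363 and 401 CPM (2.13 ± 0.17). The proximal signalling machinery did not move as a block. Of its 30 genes, 10 were called higher, 6 lower and 14 not (median 0.16). The kinases Zap70 (309.9 and 302 CPM against 938 and 736 CPM, 1.45 ± 0.15) and Fyn (105 and 119 CPM against 274 and 261 CPM, 1.26 ± 0.16) were higher, and so was the phosphatase Ptpn22 (1.56 ± 0.17). Ptprc, the CD45 gene used in the sort, was at 2572 and 2571 CPM against 2549 and 2244 CPM and was not called (-0.10 ± 0.13, 95% interval -0.37 to 0.17). Trbc1, a constant segment of the beta chain that is nearly identical to Trbc2 and can share its reads, was at 582 and 762 CPM against 1352 and 1174 CPM (0.91 ± 0.17). Trac differed by 0.59 ± 0.15 (edgeR adjusted p = 0.00570, or 0.0669 without PD-1+ replicate 1).

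Anergy, a lasting unresponsiveness after receptor signals without help, is marked on CD4+ cells by folate receptor 4, the product of Izumo1r, together with CD73. Izumo1r was at 70.6 and 80.7 CPM in PD-1- and 465 and 420.3 CPM in PD-1+ libraries (2.56 ± 0.17, edgeR adjusted p = 9.02e-09), and Nt5e, the CD73 gene given above, rose with it (3.73 ± 0.30, edgeR adjusted p = 2.15e-07). Of 16 anergy genes, all tested, 10 were called higher, 1 lower and 5 not (median 2.15). Nrp1, a semaphorin receptor, was at 9.39 and 9.11 CPM against 597 and 529 CPM (5.92 ± 0.23, edgeR adjusted p = 2.73e-11). Dgka, a kinase that consumes diacylglycerol and dampens receptor signals, was lower, at 2537 and 2135 CPM against 652 and 789 CPM (-1.70 ± 0.14, edgeR adjusted p = 1.40e-07). The ubiquitin ligase Itch was at 142 and 119 CPM against 97.6 and 112 CPM and was not called (-0.32 ± 0.18). Feedback inhibitors were divided, with 8 of 17 tested (of 18) called higher, 3 lower, or 1 lower without PD-1- replicate 1, and 6 not called (median 0.18). Cish, which limits cytokine and receptor signals, was at 18.1 and 27.3 CPM against 409 and 339 CPM (4.09 ± 0.23), Spry1, an inhibitor of the Ras pathway, at 2.91 and 5.85 against 111 and 125 CPM (4.86 ± 0.39), and Ptpn11, the phosphatase SHP2 that binds PD-1, at 36.3 and 34.5 against 225 and 260.0 CPM (2.77 ± 0.22). Of 12 genes known from regulatory T cells, 8 were called higher and 2, including Foxp3 itself (-5.47 ± 1.01, edgeR adjusted p = 0.000574), lower. The higher members included Nrp1, Ikzf2, Izumo1r and Tnfrsf18, which conventional T cells also switch on, and the median was 3.0, or 2.67 with bounds.

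Antigen presentation genes of MHC class I and the immunoproteasome were higher in 15 of 16, lower in 0 and not called in 1 (median 1.08). H2-D1, a classical heavy chain, was at 2817 and 2898 CPM in PD-1- and 6943 and 5689 CPM in PD-1+ libraries (1.14 ± 0.13, edgeR adjusted p = 3.86e-06). Psmb8, a catalytic subunit of the immunoproteasome, was at 285 and 352 CPM against 917 and 802 CPM (1.44 ± 0.17). The nonclassical H2-Q7 and H2-Q6 differed by 3.04 ± 0.20 and 4.12 ± 0.26, but these near-identical genes can exchange reads and their separate values are uncertain. Genes of the response to type I interferon showed no common direction, with 4 of 27 tested (of 30) called higher, 3 lower, or 1 lower without PD-1- replicate 1, and 20 not called (median -0.21). Ifi27l2a was at 35.0 and 41.6 CPM against 102 and 110.3 CPM (1.48 ± 0.24), and Ifih1, a sensor of double-stranded RNA, at 32.7 and 16.9 against 115 and 76.3 CPM (1.89 ± 0.30). Of 16 genes of the Gbp and Irg families of interferon-gamma-induced GTPases, 3 were called higher, 1 lower and 12 not (median 0.41), and 1 was called higher without PD-1- replicate 2 and 1 without PD-1+ replicate 1. Gbp5 was at 3.56 and 1.30 CPM against 60.5 and 28.8 CPM (4.01 ± 0.51, edgeR adjusted p = 2.78e-05), while Gbp11 was lower (34.7 and 22.8 CPM against 3.92 and 3.16 CPM, -3.03 ± 0.48). Of 8 Gimap GTPases, which support lymphocyte survival, 4 were called higher and 2 lower. Gimap7 was at 37.6 and 55.3 CPM against 411 and 291 CPM (2.95 ± 0.32) and Gimap9 at 213 and 209 against 109 and 103 CPM (-0.99 ± 0.17).

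DNA replication genes were higher almost throughout, with 29 of 32 called higher, 0 lower and 3 not (median 1.49). The helicase subunit Mcm6 was at 216 and 193 CPM in PD-1- and 1009.7 and 838 CPM in PD-1+ libraries (2.17 ± 0.15, edgeR adjusted p = 1.28e-08) and Mcm5 at 95.5 and 109 against 529 and 426 CPM (2.23 ± 0.17, edgeR adjusted p = 3.77e-08). Lig1, which joins Okazaki fragments, was at 26.9 and 34.5 CPM against 141 and 121 CPM (2.11 ± 0.21), and Uhrf1, which copies DNA methylation, at 58.6 and 50.1 against 160.3 and 150.4 CPM (1.5 ± 0.18). Mitosis genes differed less. Of 25, 5 were called higher, 0 lower and 20 not (median 0.61), and the count was 0 without PD-1- replicate 1, 11 without PD-1- replicate 2, 2 without PD-1+ replicate 2 and 15 with the replicate number as a block. Mki67, a chromosome-coating protein of cycling cells, was at 158 and 268 CPM against 238 and 325 CPM and was not called (0.41 ± 0.33, edgeR adjusted p = 0.405). Its libraries overlapped, with PD-1- replicate 2 above PD-1+ replicate 1. Aurkb, a kinase of chromosome segregation, was at 48.6 and 63.7 CPM against 112 and 113 CPM (1.02 ± 0.22, edgeR adjusted p = 0.00233, or 0.0556 without PD-1- replicate 1). Among regulators of the cycle, 5 of 22 tested (of 24) were called higher, 3 lower and 14 not (median 0.24). Cdkn1a, the p21 inhibitor, was at 2.91 and 5.85 CPM against 141 and 103 CPM (4.91 ± 0.41, edgeR adjusted p = 6.38e-07) and Cdk6, a kinase of entry into the cycle, at 54.1 and 67.0 against 328 and 218 CPM (2.19 ± 0.24). Cdkn1b, the p27 inhibitor of resting cells, was lower, at 209 and 211 CPM against 79.8 and 94.9 CPM (-1.27 ± 0.16, edgeR adjusted p = 1.98e-05).

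Glycolysis genes were called higher in 13 of 18, lower in 0 and not called in 5 (median 1.06). Tpi1 was at 78.0 and 90.4 CPM in PD-1- and 367 and 345 CPM in PD-1+ libraries (2.09 ± 0.17, edgeR adjusted p = 8.18e-08), Gapdh at 117 and 134 against 409 and 388 CPM (1.67 ± 0.16) and Aldoa at 398 and 364 against 1097 and 1054 CPM (1.5 ± 0.16), each an enzyme of glycolysis. Nuclear genes of the respiratory chain were called higher in 8 of 28, or 5 without PD-1- replicate 1, lower in 0 and not called in 20 (median 0.42). Sdhb, of succinate dehydrogenase, differed by 0.98 ± 0.16 and Cox5a, of cytochrome oxidase, by 1.12 ± 0.18, whereas Atp5b, of the ATP synthase, was at 1132 and 1070.0 CPM against 1345 and 1361 CPM and was not called (0.30 ± 0.12). Sterol and fatty acid synthesis genes were mostly not called, with 2 of 22 higher and 1 lower. Fasn, the fatty acid synthase, differed by -1.19 ± 0.19. Cyp51, an enzyme of cholesterol synthesis, differed by 1.24 ± 0.38 and lost its call without PD-1- replicate 2 or PD-1+ replicate 1 (edgeR adjusted p = 0.120 and 0.154). Ribosome biogenesis genes were called lower in 6 of 21, or 3 without PD-1- replicate 1 and 3 without PD-1- replicate 2, and higher in 1 (median -0.29). Wdr12, of the complex that matures the large subunit, was at 179 and 181 CPM against 36.7 and 43.2 CPM (-2.17 ± 0.19) and Npm1, nucleophosmin, at 645 and 628 against 473 and 569.6 CPM (-0.29 ± 0.14, not called). Folding and stress genes of the endoplasmic reticulum were called higher in 9 of 20, but in 5 without either PD-1- library, in 4 without PD-1+ replicate 1 and in 5 with upper-quartile scaling. Sdf2l1, a chaperone cofactor, differed by 1.96 ± 0.26 and Xbp1, a factor of secretory cells, by 1.00 ± 0.20.

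Survival genes of the Bcl2 family and its partners were called higher in 7 of 17 tested (of 20), lower in 3 and not called in 7 (median 0.56). Bcl2a1b, a survival protein that activation induces and whose near-identical copies can share reads, was at 0.972 and 1.95 CPM in PD-1- and 48.4 and 41.8 CPM in PD-1+ libraries (5.04 ± 0.45). Pmaip1, the death-promoting NOXA, was at 10.7 and 9.76 CPM against 127 and 108 CPM (3.50 ± 0.33, edgeR adjusted p = 7.66e-07). Genes that promote and genes that restrain cell death were both among those called higher. Bcl2l11, the gene of BIM, was at 164 and 142 CPM against 229 and 192 CPM and was not called (0.46 ± 0.18).

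Calcium-binding S100 proteins, annexins and galectins were called higher in 13 of 16 tested (of 18), lower in 0 and not called in 3 (median 2.19). S100a4 was at 1.30 and 3.25 CPM in PD-1- and 236 and 174 CPM in PD-1+ libraries (6.65 ± 0.41, edgeR adjusted p = 7.45e-09) and S100a6 at 2.91 and 5.85 against 434 and 293 CPM (6.50 ± 0.41, edgeR adjusted p = 1.25e-06). Lgals3, a lectin that macrophages also make in quantity, was at 1.62 and 1.95 CPM against 464 and 265 CPM (7.67 ± 0.38, edgeR adjusted p = 1.29e-08). Of the macrophage markers, Cd5l, C1qb and Marco were higher, as given above, and Cd68 was at 36.6 and 44.9 CPM against 30.6 and 27.4 CPM and was not called (-0.48 ± 0.30); their part in Lgals3 was not tested. Of 27 actin cytoskeleton genes, 17 were called higher, 3 lower and 7 not (median 0.84). Actb, cytoplasmic actin, took 1.24 and 1.44% of all counts in PD-1- and 2.90 and 3.04% in PD-1+ libraries (1.23 ± 0.11, edgeR adjusted p = 2.41e-07). Myo1f, a motor of leukocyte migration, was at 27.2 and 32.5 CPM against 578 and 410.1 CPM (4.06 ± 0.24). Genes of the TGF-beta pathway were called in both directions, with 5 of 14 tested (of 16) lower (median -0.41). Tgfbr2, the ligand-binding receptor chain, fell from 679.7 and 622 to 136 and 245 CPM (-1.77 ± 0.27), Smad4, the shared mediator, from 71.6 and 74.8 to 21.4 and 25.0 CPM (-1.66 ± 0.26), and Smad7, the feedback inhibitor, from 96.5 and 116 to 12.8 and 27.1 CPM (-2.40 ± 0.31). The other 4 called members were higher, a count that fell to 0 without PD-1- replicate 1 or PD-1+ replicate 2, to 1 without PD-1- replicate 2 and to 2 without PD-1+ replicate 1.

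**Figure D4:**
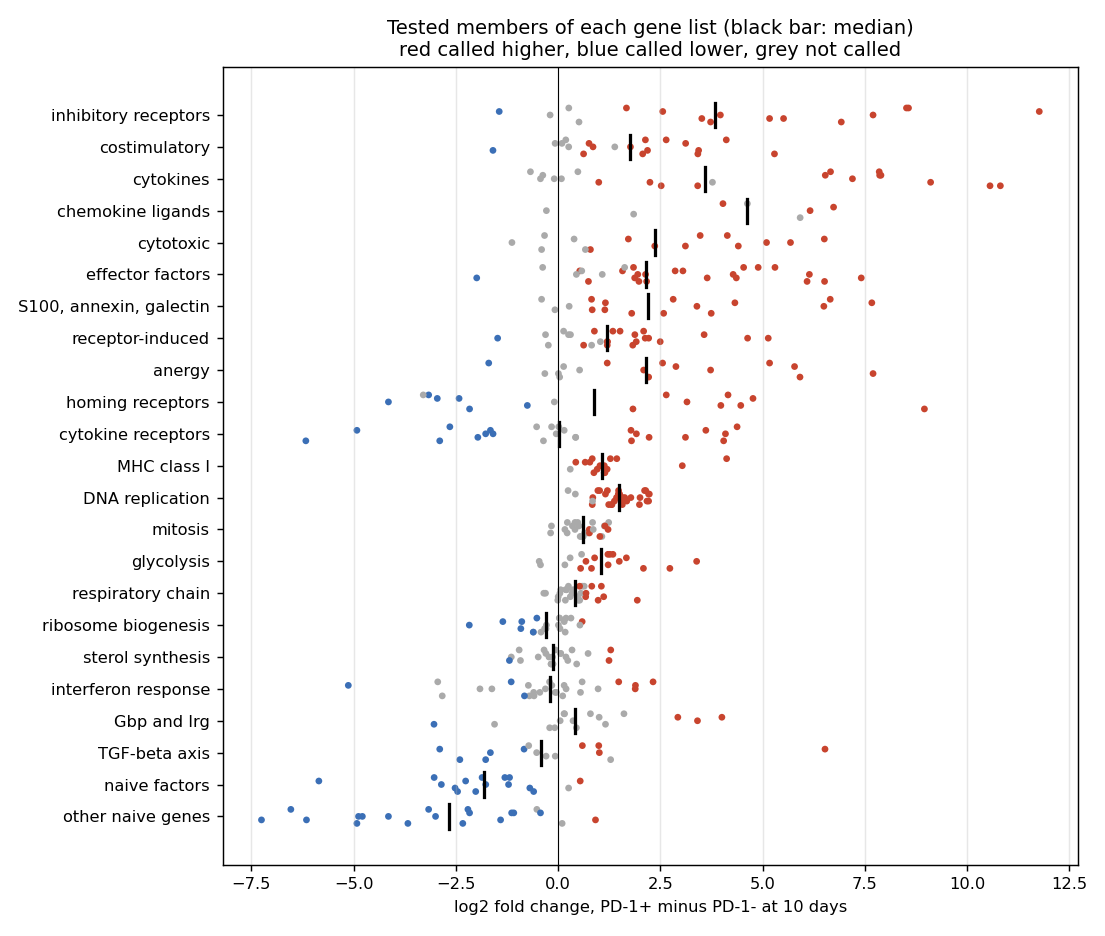
Log2 fold change of PD-1+ against PD-1- cells for every tested member of 23 gene lists, each point 1 gene, red if called higher, blue if called lower and grey if not called, with a black bar at the median of the list. Inhibitory receptors, cytokines and chemokine ligands spread far to the right and resting-cell genes to the left; replication genes sit in a narrow band at a median of 1.49 and mitosis genes at 0.61.

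Gene structure and promoter letters were compared between the called genes as a description. Genes called lower were longer, with a median exonic length of 5425 bp in GENCODE M21 against 3856 bp for genes called higher and 4315 bp for all tested genes, over the 98.0% of symbols that matched 1 gene model. Long noncoding RNAs made up 8.0% of the genes called lower, 3.88% of those called higher and 7.60% of all tested. RefSeq start sites on GRCm38.p6 gave a single promoter window for 6657 of the 11490 genes, and 16 short motifs were searched on both strands in the 250 bases before the start. The AP-1 motif was searched as TGANTCA with any base at the N, a looser form of the letters bound by Fos and Jun proteins. It stood in 65 of 1134 promoters of genes called higher (5.73%), 30 of 839 of genes called lower (3.58%) and 250 of all 6657 (3.76%). The NFAT motif TGGAAA stood in 16.8% of the promoters of higher genes, 12.9% of lower genes and 14.6% of all. In the same order, the E2F motif TTTCGCGC stood in 11 (0.97%), 1 (0.119%) and 39 promoters (0.586%). For the T-box motif AGGTGTGA the numbers were 11 (0.97%), 6 (0.715%) and 47 (0.706%). ETS shares were 14.8%, 11.6% and 16.5%, RUNX 0.882%, 0.954% and 1.13%, and TCF/LEF 2.2%, 2.5% and 2.18%. NF-kB shares were 22.3%, 22.1% and 21.3%, and E-box shares 7.58%, 9.89% and 8.79%. The remaining motifs are not reported here. The median GC content of the windows was 60.0% for higher genes, 61.6% for lower genes and 60.0% for all. To show an AP-1 match in its setting, 4 sequences are printed with 40 bases on each side, or up to the start site, in the direction of transcription, with the match in capitals. They belong to the genes with a match that had the largest upward differences among those called, without overlap and averaging a log2 CPM of 4 or more.
Gzmb, chr14:56262346-56262432, minus strand: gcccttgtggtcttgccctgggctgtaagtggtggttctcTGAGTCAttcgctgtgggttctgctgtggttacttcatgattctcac
Agpat4, chr17:12119104-12119190, plus strand: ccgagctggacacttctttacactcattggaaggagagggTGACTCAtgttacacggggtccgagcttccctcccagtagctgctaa
Sdcbp2, chr2:151572539-151572622, plus strand: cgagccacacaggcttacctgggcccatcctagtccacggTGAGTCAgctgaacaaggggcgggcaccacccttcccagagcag
Cybb, chrX:9469417-9469503, minus strand: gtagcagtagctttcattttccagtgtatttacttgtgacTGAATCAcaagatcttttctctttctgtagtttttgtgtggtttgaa
Gzmb is the granzyme described above, and its match starts 58 bases before the start of transcription. Agpat4 encodes an acyltransferase of phospholipid synthesis and differed by 4.6 ± 0.39, with its match 140 bases upstream. Sdcbp2, an adaptor of membrane proteins related to syntenin, differed by 3.83 ± 0.37, with its match 44 bases upstream. Cybb, the membrane subunit of the NADPH oxidase of phagocytes, whose markers are given above, differed by 3.71 ± 0.62. Its match, 139 bases upstream, has A at the N and so is a match to the looser form only. A match in letters does not show that a factor binds there.

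The libraries of a population differed from each other in a patterned way. Among 3181 genes whose log2 CPM averaged 6 or more, 31 differed by more than 2-fold between the PD-1- libraries and 55 between the PD-1+ libraries. Mitosis genes were higher in replicate 2 than in replicate 1 for 25 of 25 genes in PD-1- cells and 25 of 25 in PD-1+ cells, with median log2 ratios of 0.71 and 0.36. Gbp and Irg genes ran the other way, higher in replicate 1 for 15 of 16 genes in PD-1- and 16 of 16 in PD-1+ cells (median log2 ratios of replicate 2 over replicate 1 of -0.57 and -0.50). Over all 11490 tested genes, 5415 were higher in replicate 1 in PD-1- and 6084 in PD-1+ cells. Replicate 1 was the higher PD-1+ library for 12 of 16 inhibitory receptors, 11 of 15 cytotoxic genes, 6 of 7 chemokines and 16 of 16 MHC class I genes, and for 6 of 20 other resting-cell genes, 8 of 20 cytokines and 1 of 14 TGF-beta pathway genes. Of the called genes with the widest gaps between the PD-1+ libraries, Myo6, an actin motor, was at 40.2 and 13.4 CPM against 252 and 261 CPM in PD-1- cells (-3.26 ± 0.48), and Gzmb and Ccr2, given above, were each higher in replicate 1. Without either PD-1- library neither was called. In PD-1- cells the widest gaps included Dut, which clears dUTP, at 36.6 and 68.3 CPM against 191 and 154 CPM in PD-1+ cells (1.76 ± 0.24).

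**Figure D5:**
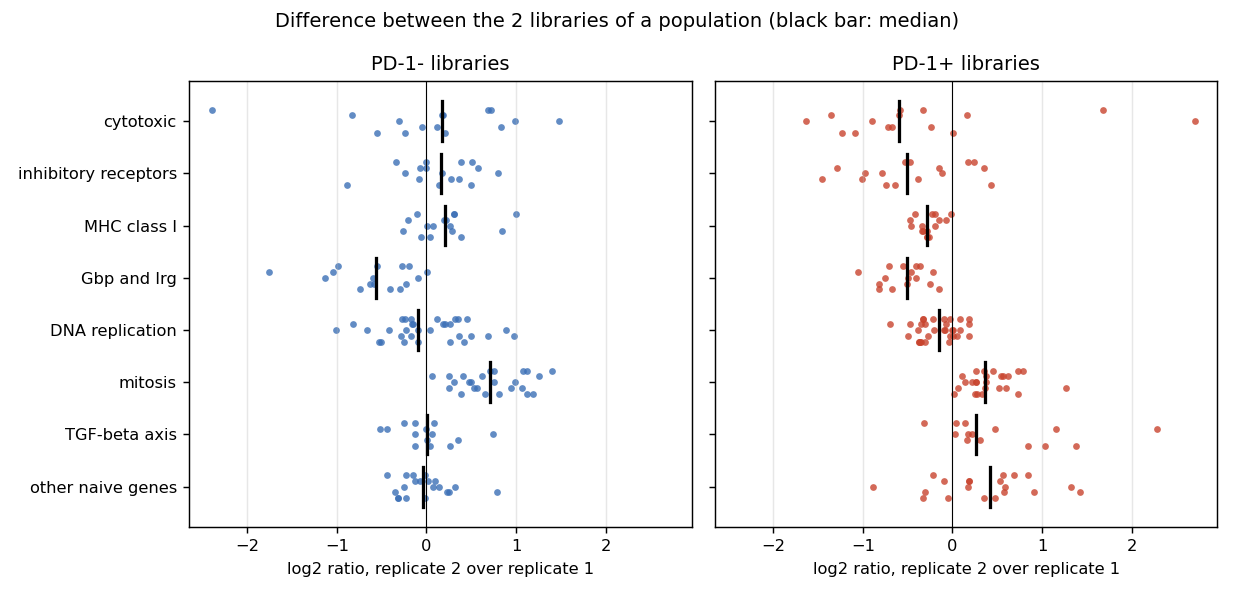
Log2 ratio of replicate 2 over replicate 1 for the tested genes of 8 lists in PD-1- (left) and PD-1+ (right) libraries, each point 1 gene and each black bar the median. Mitosis genes lie right of 0 and Gbp and Irg genes left of 0 in both panels; cytotoxic and inhibitory receptor genes lie left of 0 mainly in the PD-1+ panel.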

How the data were processed

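RNA from about 1000 sorted liver CD4+ cells per library was reverse transcribed with oligo(dT), amplified by limited PCR, tagged with Nextera XT and sequenced as pairs of 25 bp reads, per the labels' protocols. The authors deposited 1 table of raw counts per gene symbol; STAR 2.5.4, featureCounts and the mm10 build are named in the submitters' processing notes, and whether the counting used strand is not given in the sources used here. The labels' protocols describe PCR and no molecular identifiers, so counts are not treated as independent molecules and count-based floors cover counting error only.

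Counts were fitted in edgeR 4.0.16 (R 4.3.3; robust quasi-likelihood test, TMM scaling, filterByExpr) with the 4 groups of all 8 libraries, which share 1 estimate of spread, and PD-1+ was contrasted with PD-1- at 10 days. P-values were adjusted by Benjamini-Hochberg over 11490 genes, and a gene was called at an adjusted p below 0.05. Log2 fold changes carry their standard error after ±, and list medians are of log2 fold changes. CPM of a gene in a library were computed from the summed tested counts scaled by TMM. List sums, values over pooled libraries and the bounds on fold differences used the counts of all symbols, without TMM. In 1 simulation for 10927 genes, counts were drawn around the mean of each gene over all 8 libraries. In it 100 genes were changed by 2-fold and 100 by 4-fold. Of these, 31% of 2-fold and 71% of 4-fold changes were recovered, and 8 of 110 calls (7.27%) were false. Far fewer genes changed there than the 3364 called in the data, which alters the adjustment of p, so these shares may not hold for the data.

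The labels do not say that equal replicate numbers mark a shared animal or sort, so the number was used as a block only in an alternative. The genes named are the 12 largest called differences each way averaging a log2 CPM of 4 or more, without overlap between the populations. From every list they are up to 4 called members, by smallest p, and up to 2 uncalled members, by highest CPM. Nearly one-sided ligand, homing and cytotoxic genes, genes fixed by name, and called genes that differed most between libraries were added. Any other is said to be named after its values were seen. Some genes that the rule names are not reported here. The members and lists were chosen with earlier results of these data known. Alternatives were the 10-day libraries alone, a replicate block, upper-quartile or DESeq2 scaling, DESeq2 1.42.0, limma-voom 3.58.1, other filters, a fit without robust estimation, and leaving out each library.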

Additional observations from a re-analysis of the deposited data

How the results depend on the processing

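Leaving out each 10-day library in turn gave 2203 to 2757 called genes against 3364, with 1209 to 1585 higher, 956 to 1172 lower, 977 to 1209 higher by 2-fold or more and 701 to 905 lower by 2-fold or more. The lowest totals came without PD-1- replicate 1 (2203) and without PD-1+ replicate 1 (2250), and 62.5 to 75.6% of the calls were shared with the full set. In such a fit the lone library is assumed to vary like the other groups. Without the 5-day libraries, but on the same 11490 genes, 3239 were called. With DESeq2 2827 genes were called, with limma-voom 3584 and without the filter 3264 of 32576. Upper-quartile scaling moved the median of all tested genes to -0.08 and the split to 1660 higher and 1759 lower, so that 48.6% of calls were upward against 55.9%. A replicate block gave 3563 calls, 97.3% of the main calls among them, and raised mitosis genes called higher from 5 to 15 and Gbp and Irg genes from 3 to 6. The deviations of libraries with the same number correlated at 0.114 across genes at 10 days and 0.094 at 5 days, while mitosis and Gbp and Irg genes differed between replicates in the same direction in both populations; whether same-numbered libraries share an animal or a sort is not given in the labels. Mitosis genes called higher numbered 8 with DESeq2, limma-voom or a fit without robust estimation and 16 without the filter. Il10 lost its call in the 10-day libraries alone (edgeR adjusted p = 0.0579) and with limma-voom (adjusted p = 0.180). With the block, Ccl5, Bhlhe40 and Nkg7 lost their calls (edgeR adjusted p = 0.0919, 0.0557 and 0.0587), and Ccl4, Vsir and Bcl2l11 gained one (2.63e-11, 0.0440 and 0.0321). Ccl5, Ccr2 and Gzmb also lost theirs in the 10-day libraries alone (edgeR adjusted p = 0.0577, 0.113 and 0.0654), and Gata3 lost its call with upper-quartile scaling (0.0751). Gzma, at -0.33 on the log2 scale and not called, was at -1.44 to 1.45 when each library was left out. Ifngr1, at -0.05 on the log2 scale and not called, was at 0.017 with no filter but 1 count in all libraries and -0.34 to 0.20 when each library was left out. Tnf, at 0.08 on the log2 scale and not called, was at -0.012 with upper-quartile normalization. The cause of these changes was not tested. One of the 4 libraries held 1473216 counts, and the spread was measured over pairs of libraries. A gene not called here, other than the 3216 with an interval within 2-fold, may still differ by 2-fold. In the simulation 31% of 2-fold differences were recovered, but far fewer genes changed there than were called here, so that share may not hold for these data.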

Other observations

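Of the tested genes, 81 had counts on the PD-1+ side only and 23 on the PD-1- side only. Among them, 16 had 0 counts in both PD-1- libraries and at least 100 in the PD-1+ libraries, and 0 had the opposite pattern. At a minimum of 30 counts the numbers were 58 and 4. The shallowest library, of 1473216 counts, was on the PD-1- side. The genes named next were chosen after their values were seen, and each bound is over a floor of 3 counts in the PD-1- group.

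Dusp14, a phosphatase that dampens T cell receptor signals, had 333 and 339 counts on the PD-1+ side, at least 171-fold higher (edgeR adjusted p = 1.13e-08). Lilrb4a, an inhibitory immunoglobulin-like receptor known from myeloid cells and activated T cells, had 337 and 190 counts, at least 134-fold higher (edgeR adjusted p = 1.09e-07). Nrn1, neuritin, first known from neurons, had 255 and 254 counts, at least 130-fold higher (edgeR adjusted p = 2.73e-08), and Ltb4r1, a leukotriene B4 receptor, had 157 and 179 counts, at least 85.6-fold higher (edgeR adjusted p = 7.12e-06). Klrg1, a receptor of terminally differentiated effector cells, had 49 and 59 counts, at least 27.5-fold higher (edgeR adjusted p = 2.75e-05).

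The most abundant of the 16 was Gcg, the glucagon gene of pancreatic alpha cells and intestinal L cells. It had 0 and 0 counts in PD-1- replicates 1 and 2 and 786 and 394 in their PD-1+ counterparts, which is at least 301-fold more, but it was not called (11.97 ± 2.87 on the log2 scale, edgeR adjusted p = 0.111). It was called in the 10-day libraries alone (edgeR adjusted p = 0.00150), with the replicate block (edgeR adjusted p = 4.43e-11), with DESeq2 (adjusted p = 0.000408) and without robust estimation (edgeR adjusted p = 0.000113). The source of this transcript was not tested.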
